A study of Mus musculus with 15 samples.

Results

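The genes described are a module of 33 erythroid genes, taken by symbol, that runs from the transcription factors of the committed progenitor to the globins and membrane proteins of the red cell. Of these, 32 were found among the 38315 genes of the table, all 32 passed the filter on low values, and 1 was not analysed here. RNA levels were compared over 15 mouse bone marrow samples in 3 groups. In the first group, 7 marrows came from mice that had developed acute myeloid leukaemia (AML) and carry NUP98-NSD1/FLT3-ITD, so that a nucleoporin is fused to a histone methyltransferase and the receptor tyrosine kinase FLT3 carries an internal tandem duplication. The second is 4 wild-type whole marrows, and the third is 4 wild-type lineage-negative marrows, which were depleted of cells bearing surface antigens of mature blood lineages. None of the groups is described as treated. Age, strain, the promoters that drive the AML alleles and the antibodies used for depletion are not given in the sources used here. Nothing in the labels says that replicates of the wild-type groups came from separate animals, so the p-values measure the spread between these samples, which may be partly technical.

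Red cells form in the marrow from progenitors that switch on GATA1 and KLF1, respond to erythropoietin, and then fill with hemoglobin while building a spectrin skeleton under the membrane. Regulators and some early enzymes are already made in progenitors, whereas globin, the anion exchanger and much of the skeleton accumulate in the late erythroblast shortly before the nucleus is lost. A lineage-negative preparation keeps erythroid progenitors and removes most late erythroblasts when antibodies to the erythroid surface are in the depletion mix.

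Values are normalized counts, read counts per gene divided by a size factor for each library. Differences are log2 differences of group means on the scale of log2(normalized count + 1), with standard errors (SE) from a limma fit over 18941 genes, two-sided. Calls required a Benjamini-Hochberg adjusted p under 0.05 together with a log2 difference of 1 or more in size. The estimated depth was 20.3 to 35.1 M reads (M, mega) in AML, 11.4 to 17.2 M in whole marrow and 20.3 to 28.1 M in lineage-negative marrow. A floor of 3 reads stood at a normalized count of 1.96 to 4.09. The median gene was not at 0: it was shifted by 0.67 for AML against whole marrow, by 0.59 for lineage-negative against whole marrow and by 0.02 for AML against lineage-negative marrow. After scaling by the trimmed mean of M values (TMM) the shifts were −0.01, −0.09 and 0.03. For 1750 chemosensory receptor genes, olfactory and vomeronasal, which marrow is not known to use, the mean level was 6.31 to 11.9 in whole marrow, 0.325 to 0.462 in lineage-negative marrow and 0.404 to 3.34 in AML.

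Nearly the whole module was low in AML. Against whole marrow 31 of the 32 genes fell and none rose in the limma test, also at an unadjusted p under 0.05, where 11.3% of all genes tested were called lower and 27.3% higher, and the exception was Nfe2. The median difference of the 32 genes was −6.19, against 0.67 for all genes. In each of these 31 of the 32 genes (96.9%), every AML library lay below every whole marrow library, which held for 7.88% of all genes tested. With TMM scaling 31 were again called lower and none higher, where 16% and 4.73% of all genes were. TMM moved the members' differences from whole marrow by −0.70 to −0.64, so each fold against whole marrow given here, on the deposited scale, would be about 1.61 times larger.

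The comparison with lineage-negative marrow was less uniform. In it 22 of the 32 genes fell, beside 12.5% of all genes tested called lower and 17.7% higher, and none rose in the limma test, also at an unadjusted p under 0.05. With TMM scaling the counts were again 22 and none, beside 12.4% and 17.6%. The median was −4.02, against 0.02 for all genes. For 20 of the 32 genes (62.5%), all of them called, every AML library lay below every lineage-negative library, as for 17.6% of all genes tested. Tmod1 and Trim10 were called although 1 or more libraries overlapped. The 22 genes, 68.75% of the module, were called lower against both normal groups, as were 3.12% of all genes. The 2 comparisons share the AML libraries. In bulk RNA, fewer erythroid cells and less erythroid RNA per cell cannot be told apart.

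The normal groups were used to place each gene along the path. A gene called higher in lineage-negative than in whole marrow is called early here, 1 called lower is called terminal, and 1 not called lies between. There were 5 early genes, where 33.1% of all genes tested were called higher, and 15 terminal genes, where 17.2% were called lower, leaving 12 between. The early genes were Tfr2, Pklr, Car1, Gfi1b and Gata1, with differences from 2.91 down to 1.08. The terminal genes ran from Trim58 at −1.15 to Hbb-bs at −7.92, with the 4 adult globins at the far end. Without lineage-negative replicate 1, which held the most globin of its group, Hbb-bs was at −8.76 and Slc4a1 moved from −5.36 to −6.01. The calls nearest the threshold were those of Gata1, at 1.08 (adjusted p = 0.0421), and Trim58, at −1.15 (adjusted p = 0.0425). Of the genes not called, Tfrc had the smallest adjusted p, 0.0631, at −0.72, and Rhd at −1.39 was past the threshold of size with an adjusted p of 0.0689. Scaling mattered for these classes: with TMM only Pklr and Tfr2 were called higher, 19 genes were called lower and 11 lay between, beside 11% and 24.8% of all genes. The 15 terminal genes were also terminal with TMM, Car2, Nfe2, Rhd and Tfrc joined them, and Gata1, Gfi1b and Car1 lay between.

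By class, all 5 early genes were lower in AML than in lineage-negative marrow, with a median difference of −6.35, as were 10 of the 12 genes between, with a median of −5.67. Only 7 of the 15 terminal genes were, with a median of −1.45. Against whole marrow the medians were −5.27, −6.37 and −6.71. The classes were cut from the same normal libraries, so this order is partly set by their definition and carries no test. In AML the early genes were far under both normal groups, and 8 terminal genes, among them the 4 globins, were not called against lineage-negative marrow, though Hba-a1 was called lower without AML replicate 3.

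**Figure D1:**
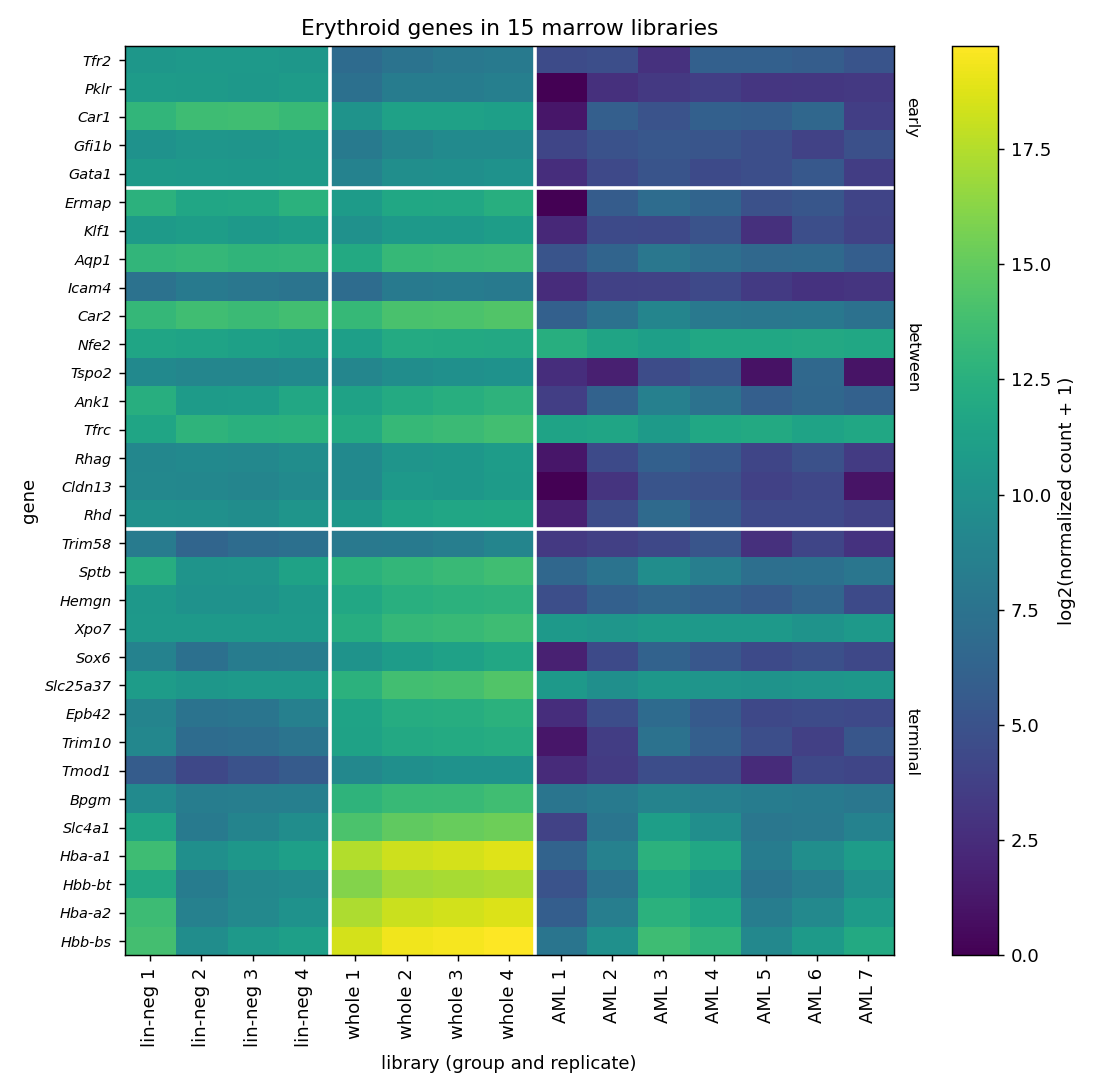
Levels of the 32 erythroid genes (rows, ordered from early to terminal) in the 15 libraries (columns, by group), as log2(normalized count + 1). Read along a row, the AML libraries are the darkest for 20 genes, and the 4 whole marrow libraries are the brightest for each globin. Colours compare libraries for 1 gene, not genes with each other.

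Among the regulators, Gata1 and Klf1 were nearly silent in AML. Gata1, the zinc finger factor that erythroid, megakaryocytic and mast cells depend on (chrX:7959260-7978071, minus strand, GRCm38), had a lowest normalized count of 5.09, a median of 21.1 and a highest of 42.0 over the 7 AML libraries. Whole marrow replicates 1 to 4 had 430, 848, 894 and 1059, and lineage-negative replicates had 1696, 1618, 1464 and 1707. The groups did not overlap, and the AML libraries were far under both. The AML level was 38.6-fold lower than in whole marrow (log2 difference −5.27 ± 0.40 SE, limma adjusted p = 1.17e-08) and 81.3-fold lower than in lineage-negative marrow (−6.35 ± 0.40 SE, limma adjusted p = 2.75e-10).

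Klf1, the erythroid Krüppel-like factor that activates the adult beta-globin gene (chr8:84901928-84905291, plus strand, GRCm38), had 3.82, 19.6 and 31.3 as its lowest, median and highest counts in AML. It had 1020, 1525, 1554 and 2025 in whole marrow and 1696, 2045, 1622 and 1993 in lineage-negative marrow. The normal groups overlapped each other, and every AML library lay below both. Klf1 was 98.2-fold lower than in whole marrow (−6.62 ± 0.41 SE, limma adjusted p = 1.25e-09) and 121-fold lower than in lineage-negative marrow (−6.92 ± 0.41 SE, limma adjusted p = 1.32e-10).

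Gfi1b, a repressor that erythroid and megakaryocytic development require, had 13.6, 26.97 and 40.4 as lowest, median and highest counts in AML. It had 287, 509, 704.4 and 704.002 in whole marrow, and 1068, 1325, 1276 and 1540 in lineage-negative marrow. It too was low in every AML library, by −4.29 ± 0.30 SE (limma adjusted p = 4.72e-09) and −5.60 ± 0.30 SE (limma adjusted p = 5.18e-11) against the 2 normal groups. Hemgn, a nuclear protein of hematopoietic cells, had a median of 64.1 in AML, against 6113 in whole marrow and 1264 in lineage-negative marrow. Sox6, which promotes terminal erythroid maturation and silences embryonic globin, had medians of 20.8, 2176 and 323 in the same order. Both were terminal in the normal marrows, and both were lower in AML than in lineage-negative marrow as well, by −4.56 ± 0.35 SE and −3.69 ± 0.55 SE (limma adjusted p = 2.59e-09 and 1.87e-05).

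Nfe2 was called in neither comparison. It encodes a subunit of the NF-E2 factor, which acts at the globin locus but is also made in megakaryocytes and myeloid cells. AML libraries had a lowest count of 2226, a median of 3435 and a highest of 5348. Whole marrow had 2249, 4386, 4125 and 3890, and lineage-negative marrow had 3151, 2768, 2372 and 2018. All groups overlapped, and the highest library of the 15 was AML replicate 1. The differences from whole marrow (−0.05 ± 0.23 SE, limma adjusted p = 0.867) and from lineage-negative marrow (0.43 ± 0.23 SE, limma adjusted p = 0.128) were not called. With TMM scaling the differences were −0.74 and 0.44 (limma adjusted p = 0.00256 and 0.0412). Both then passed the threshold of p and missed that of size, so neither was called.

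The ratio of Klf1 to Gata1 was computed in each library, with 1 added to each count, since a ratio of 2 genes hardly depends on the size factor. It was 2.37, 1.80, 1.74 and 1.91 in whole marrow and 1.00, 1.26, 1.11 and 1.17 in lineage-negative marrow. The AML libraries ran from 0.252 to 1.46 with a median of 0.791. Every AML library and every lineage-negative library thus lay below every whole marrow library, while AML and lineage-negative marrow overlapped. The mean log2 ratio was lower in AML than in whole marrow by −1.35, with an exact two-sided permutation p of 0.00909, which became 0.0545 after Benjamini-Hochberg adjustment over the 6 ratio tests made. Lineage-negative marrow differed from whole marrow by −0.78 (exact permutation p = 0.0286, the smallest these group sizes allow, adjusted 0.0571). AML differed from lineage-negative marrow by −0.57 (exact permutation p = 0.236, adjusted 0.279). At AML counts of 3.82 to 42.0 counting error adds to the spread of this ratio.

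**Figure D2:**
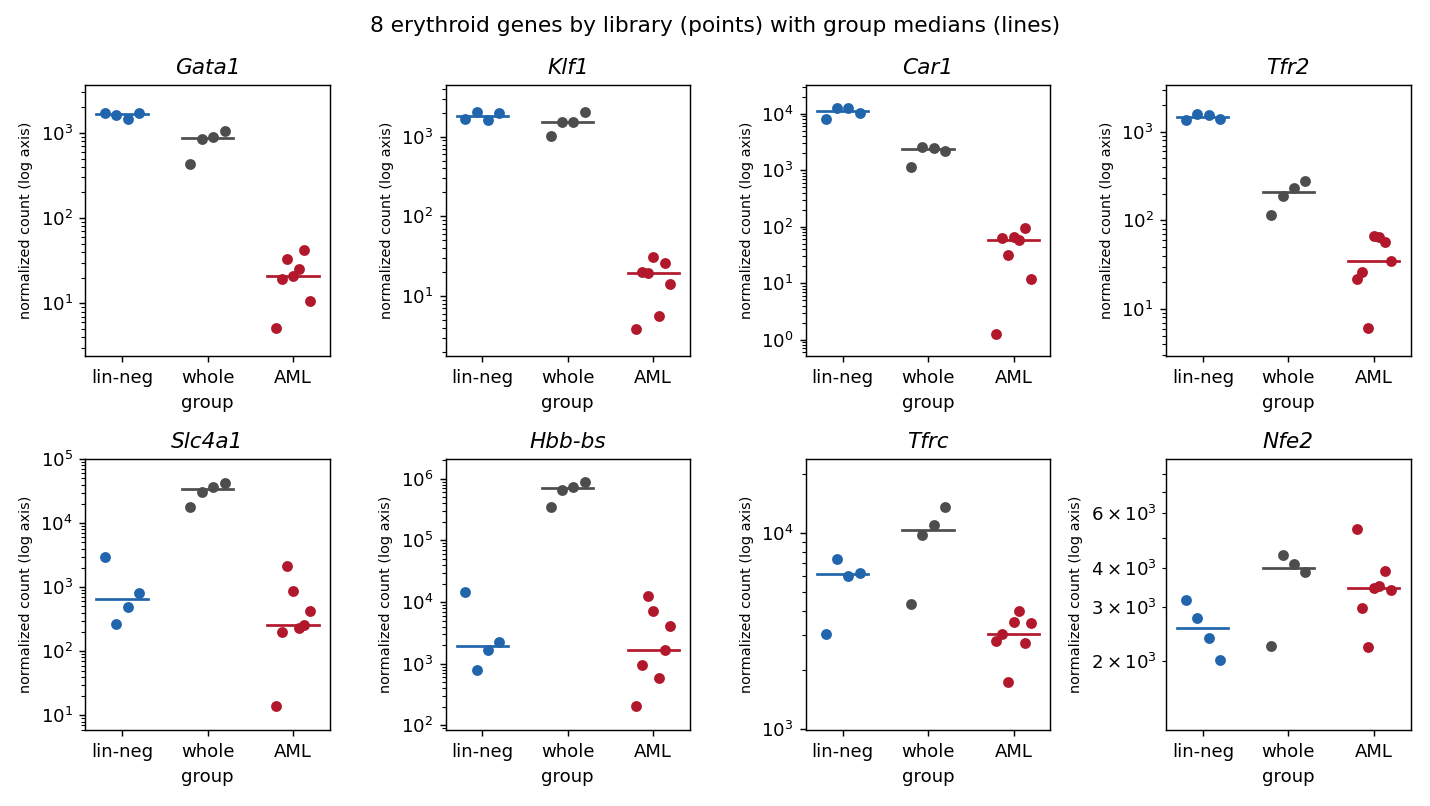
Normalized counts (log axis) of 8 erythroid genes in each library, with 7 AML, 4 whole marrow and 4 lineage-negative points per gene and lines at the group medians. For Gata1, Klf1, Car1 and Tfr2 the AML points lie under both normal groups. For Slc4a1 and Hbb-bs they spread over the lineage-negative points, and for Nfe2 the 3 groups overlap.

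The other early genes were the enzymes Car1 and Pklr and the surface receptor Tfr2. Among the 32 genes, Car1 and Pklr had the widest gaps between AML and lineage-negative marrow. Tfr2, at −5.49, had a smaller gap than some genes between the classes, such as Ermap at −7.46. Early genes were defined as high in these same lineage-negative libraries, so a wide gap to them is partly set by the definition. Car1, the carbonic anhydrase that appears early in the erythroid lineage, had 1.27, 58.5 and 93.8 as lowest, median and highest counts in AML. It had 1132, 2547, 2476 and 2238 in whole marrow and 8143, 12603, 12852 and 10252 in lineage-negative marrow. The 3 groups did not overlap. Car1 was 356-fold lower in AML than in lineage-negative marrow (−8.47 ± 0.69 SE, limma adjusted p = 7.14e-09), the lowest difference among the 32 genes in that comparison. Its difference from whole marrow was −6.04 ± 0.69 SE (limma adjusted p = 1.60e-06). Without AML replicate 1, the lowest library, the differences were −7.85 and −5.42, both called.

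Pklr, the pyruvate kinase of liver and red cells, had 0, 8.37 and 11.8 in AML, 153, 310, 308 and 363 in whole marrow and 1824, 1751, 1460 and 1851 in lineage-negative marrow. It was 255-fold lower in AML than in lineage-negative marrow (−7.99 ± 0.49 SE, limma adjusted p = 2.42e-10). Car2, the other carbonic anhydrase of the red cell, was high in both normal groups, with 9743 to 21063 in whole marrow and 9197 to 13890 in lineage-negative marrow. In AML it had 63.6, 222 and 511, a difference of −6.31 ± 0.36 SE from whole marrow (limma adjusted p = 5.59e-10) and of −5.89 ± 0.36 SE from lineage-negative marrow (limma adjusted p = 2.37e-10).

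Of the 2 transferrin receptors, Tfr2 was called lower in AML against both normal groups and Tfrc against whole marrow. Tfr2, the receptor that senses transferrin-bound iron and associates with the erythropoietin receptor, had 6.13, 34.5 and 65.9 in AML. It had 116, 186, 234 and 281 in whole marrow and 1363, 1603, 1534 and 1379 in lineage-negative marrow, with no overlap between the groups. It differed by −5.49 ± 0.45 SE from lineage-negative marrow (limma adjusted p = 9.02e-09) and by −2.58 ± 0.45 SE from whole marrow (limma adjusted p = 9.67e-05).

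Tfrc, the receptor through which dividing cells and above all erythroblasts take up transferrin, had 1743, 3047 and 4000 in AML. It had 4334, 9752, 11061 and 13536 in whole marrow and 3048, 7346, 6034 and 6277 in lineage-negative marrow. AML lay below whole marrow in every library (−1.59 ± 0.29 SE, limma adjusted p = 0.000155). It overlapped lineage-negative marrow through replicate 1 of that group, and the difference of −0.86 ± 0.29 SE (limma adjusted p = 0.0213) missed the threshold of size. Without lineage-negative replicate 1 it was −1.14 and called.

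Slc25a37, the carrier that brings iron into mitochondria for heme synthesis, had 915, 1251 and 1588 in AML against 6676, 13582, 15682 and 21445 in whole marrow. Lineage-negative marrow had 1895, 1419, 1637 and 1522, which overlapped AML. The differences were −3.39 ± 0.24 SE (limma adjusted p = 5.00e-09) and −0.35 ± 0.24 SE (limma adjusted p = 0.240). Tspo2, an erythroid relative of the mitochondrial translocator protein, had 0.944, 5.09 and 101 in AML, with 3 of the 7 libraries at or under the floor of 3 reads. It had 543 to 1085 in whole marrow and 522 to 652 in lineage-negative marrow.

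Among the membrane genes, Slc4a1 in AML overlapped lineage-negative marrow, where Ank1, Sptb and Epb42 lay below it in every library. Slc4a1 encodes band 3, the anion exchanger and main membrane anchor of the red cell skeleton (chr11:102348824-102366203, minus strand, GRCm38). AML had 14.0, 257 and 2114 as lowest, median and highest counts. Whole marrow had 18166, 31100, 36286 and 42431, and lineage-negative marrow had 2919, 265, 484 and 817. Every AML library was under whole marrow, by 108-fold (−6.76 ± 0.87 SE, limma adjusted p = 5.09e-06, and −6.05 without AML replicate 1). AML and lineage-negative libraries overlapped, with AML replicate 3 and lineage-negative replicate 1 the highest of their groups (−1.40 ± 0.87 SE, limma adjusted p = 0.202). Without AML replicate 1 or lineage-negative replicate 1 that difference was −0.70 or −0.75.

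Ank1, the ankyrin that ties band 3 to spectrin, had 11.5, 70.9 and 380 in AML, 2645, 4269, 5342 and 7107 in whole marrow and 5278, 1782, 1875 and 3596 in lineage-negative marrow. Every AML library was below both normal groups, by −5.79 ± 0.59 SE and −5.10 ± 0.59 SE (limma adjusted p = 5.03e-07 and 7.97e-07). Sptb, erythroid beta-spectrin, had 98.0, 181 and 826 in AML, 6359 to 12902 in whole marrow and 5090, 1162, 1220 and 2697 in lineage-negative marrow. Epb42, which binds band 3 and ankyrin, had 5.09, 22.2 and 119, against 2801 to 6153 and 183 to 470. Both were called lower against each normal group. For Tmod1, tropomodulin, which caps the pointed ends of the short actin filaments in the skeleton, AML had 4.32, 16.8 and 24.6 and lineage-negative marrow 52.0, 18.05, 30.3 and 49.9. These overlapped, with a difference of −1.45 ± 0.44 SE (limma adjusted p = 0.0108).

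The Rh complex carries the Rh antigens and moves ammonia across the red cell membrane. Its genes Rhag and Rhd were between the classes and had 1.27, 20.2 and 66.2, and 2.54, 19.8 and 112, in AML. In lineage-negative marrow Rhag had 559 to 809 and Rhd 802 to 1239, and in whole marrow they had 644 to 1926 and 1386 to 3448. Every AML library lay below every normal library for both genes.

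Aqp1, the water channel, had 34.4, 102 and 223 in AML against 4108 to 11302 in whole marrow and 7913 to 9196 in lineage-negative marrow. Ermap, an immunoglobulin-like protein of the erythroblast membrane, had 0, 38.3 and 125, and it reached 1817 to 5354 in whole marrow and 3350 to 6569 in lineage-negative marrow. For Cldn13, a claudin that mouse erythroid cells make, AML had 0, 13.2 and 33.1, whole marrow 652 to 1821 and lineage-negative marrow 517 to 705. Each of these 3 genes was lower in every AML library than in any normal library, with log2 differences between −6.05 and −7.46 over the 6 comparisons. AML replicate 1 weighed on Ermap, whose differences of −6.96 and −7.46 were −6.16 and −6.66 without it.

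Icam4, an adhesion molecule through which erythroblasts bind macrophages of the erythroblastic island, had 4.65, 9.45 and 19.1 in AML. It had 126, 269, 317 and 285 in whole marrow and 172, 283, 230 and 190 in lineage-negative marrow. The normal groups overlapped and AML was below both, by −4.48 ± 0.35 SE and −4.35 ± 0.35 SE (limma adjusted p = 2.11e-08 and 7.14e-09).

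Of the genes that act late, Bpgm and Xpo7 were not called between AML and lineage-negative marrow, and Trim58 and Trim10 were called lower. Bpgm makes the bisphosphoglycerate that lowers the oxygen affinity of hemoglobin. It had 198, 276 and 464 in AML, 7494 to 13126 in whole marrow and 688, 328, 349 and 373 in lineage-negative marrow, and the difference from the last was −0.50 ± 0.24 SE (limma adjusted p = 0.103). Xpo7, a nuclear exporter used when the erythroblast nucleus condenses, had 1133, 1542 and 1722 in AML, 5070 to 12667 in whole marrow and 1567 to 1644 in lineage-negative marrow, with a difference of −0.13 ± 0.20 SE from the last (limma adjusted p = 0.615). For both genes AML and lineage-negative libraries overlapped.

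Trim58, a ubiquitin ligase of late erythroblasts that takes part in enucleation, had 5.66, 12.4 and 35.5 in AML, 245 to 506 in whole marrow and 83.7 to 298 in lineage-negative marrow. It was lower in every AML library than in any normal library (−4.62 ± 0.43 SE and −3.47 ± 0.43 SE, limma adjusted p = 1.46e-07 and 1.60e-06). Trim10, another member of that ligase family found in terminal erythroid cells, had 1.27, 26.4 and 176 in AML and 549, 123, 138 and 187 in lineage-negative marrow. AML replicate 3 reached into the lineage-negative range, and the difference was −3.11 ± 0.76 SE (limma adjusted p = 0.00218).

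**Figure D3:**
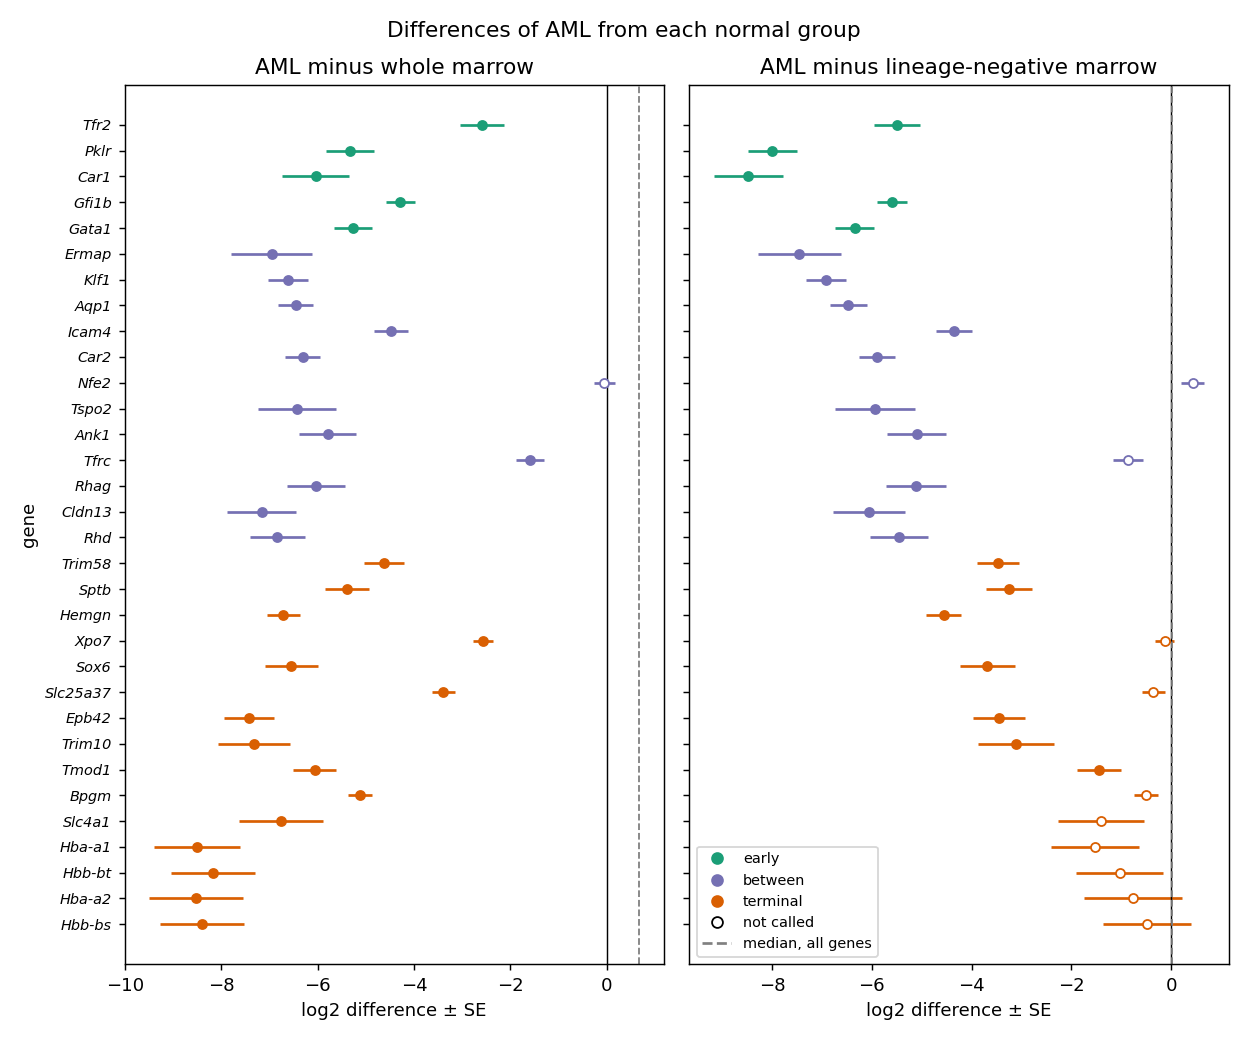
Log2 differences (points, with SE) of AML from whole marrow (left) and from lineage-negative marrow (right) for the 32 erythroid genes, coloured by class, with open points where a gene was not called. On the left 31 genes lie far left of the dashed median of all genes. On the right the differences tend to shrink toward the bottom, where the 4 globins lie between −0.48 and −1.53. This is not steady, since Xpo7 (−0.13) stands above Epb42 (−3.45). Rows are ordered by the difference between the normal groups, which uses the same lineage-negative libraries, so the trend is partly set by the order.

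The adult globins, which supply the protein of hemoglobin, showed the widest gap between the normal groups. The sum of Hba-a1, Hba-a2, Hbb-bs and Hbb-bt took 7.24% to 10.6% of the normalized counts of a whole marrow library. In lineage-negative marrow it took 0.203%, 0.0119%, 0.0240% and 0.0345% in replicates 1 to 4. In AML it took 0.00127% at the lowest, 0.0141% at the median and 0.111% at the highest. AML and lineage-negative marrow overlapped, and both were far under whole marrow.

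Hbb-bs, an adult beta-globin gene (chr7:103826534-103828096, minus strand, GRCm38), had 353501, 659520, 734139 and 872257 in whole marrow and 14642, 798, 1654 and 2248 in lineage-negative marrow. AML libraries had 202, 1687 and 12691 as lowest, median and highest. The gene was 338-fold lower in AML than in whole marrow (−8.40 ± 0.88 SE, limma adjusted p = 6.17e-07). Against lineage-negative marrow the difference was −0.48 ± 0.88 SE (limma adjusted p = 0.679), and it turned to 0.35 without lineage-negative replicate 1. Hba-a1, 1 of the 2 adult alpha-globin genes, had 77.8, 851 and 6591 in AML, 184626, 315224, 367616 and 447767 in whole marrow and 12765, 911, 1425 and 2287 in lineage-negative marrow. Its differences were −8.50 ± 0.89 SE and −1.53 ± 0.89 SE (limma adjusted p = 6.17e-07 and 0.173). The second was −2.01 and called without AML replicate 3 (limma adjusted p = 0.0453), and −0.74 without lineage-negative replicate 1. Hba-a2 and Hbb-bt moved likewise against whole marrow, by −8.52 ± 0.98 SE and −8.18 ± 0.88 SE, and against lineage-negative marrow they differed by −0.77 ± 0.98 SE and −1.03 ± 0.88 SE, neither called. Without lineage-negative replicate 1 those last values were 0.28 and −0.32. Without AML replicate 1 they were −0.15 and −0.42, and the differences from whole marrow were −7.90 and −7.57.

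The 2 genes of each globin pair are nearly identical in their coding sequence, 428 of 429 bases for Hba-a1 and Hba-a2 and 443 of 444 for Hbb-bs and Hbb-bt, so the split of reads within a pair is uncertain. As split by the authors' counting, per kb of exon the whole marrow median was 907330 for Hbb-bs and 193236 for Hbb-bt. The ratio of Hbb-bt to Hbb-bs, taken in the same way, was 0.189 to 0.195 in whole marrow, a narrow range, and 0.257, 0.399, 0.352 and 0.329 in lineage-negative marrow. The AML libraries had 0.162, 0.206 and 0.355 as lowest, median and highest. Lineage-negative and whole marrow did not overlap (log2 difference 0.78, exact two-sided permutation p = 0.0286, the smallest these group sizes allow, 0.0571 after adjustment over the 6 ratio tests). AML overlapped both groups, with differences of 0.23 from whole marrow (exact permutation p = 0.279) and −0.55 from lineage-negative marrow (exact permutation p = 0.0485, adjusted 0.0727). The summed alpha-globin counts were 0.772 to 0.834 times the summed beta-globin counts in whole marrow, 0.920 to 1.33 times in lineage-negative marrow and 0.582 to 0.811 times in AML.

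**Figure D4:**
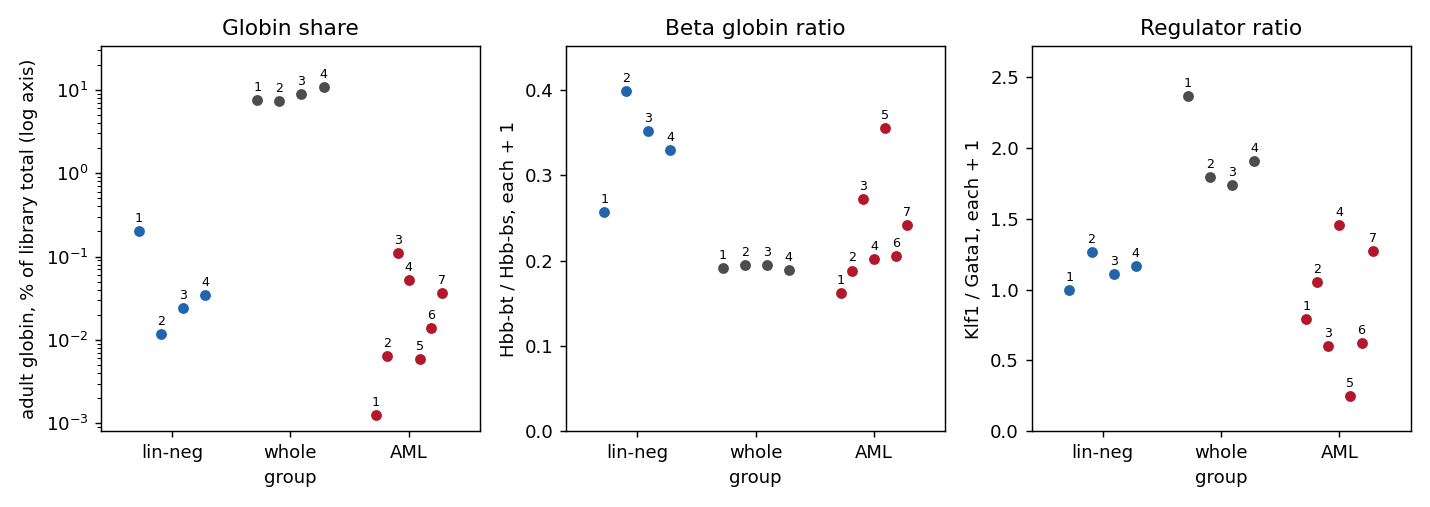
Share of each library's normalized counts in the 4 adult globin genes (percent, log axis), and per-library ratios of Hbb-bt to Hbb-bs and of Klf1 to Gata1, for 7 AML, 4 whole marrow and 4 lineage-negative libraries. Globin takes 7.24% to 10.6% in whole marrow and at most 0.203% in any other library. The Klf1 to Gata1 ratio of every AML library and of every lineage-negative library is below that of every whole marrow library.

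GATA1 binds DNA at GATA motifs and KLF1 at CACCC boxes, and both factors were low in AML, so the promoters of the module were searched for these letters. RefSeq promoter windows on GRCm38.p6, of 250 bases before and 50 after a transcription start, were found for 24 of the 32 genes, in 33 windows. Either strand was searched for AGATAA and for CCNCNCCC, motifs whose matches cannot overlap each other. AGATAA was present in the windows of 8 of the 24 genes and in 24.2% of their 33 windows, against 11.2% of all 32851 windows. CCNCNCCC was present for 15 of the 24 genes and in 57.6% of their windows, against 49.5% of all windows. Both were present for 5 of the 24 genes, Hbb-bs, Hemgn, Icam4, Rhd and Sox6. By window, both were present in 5 of the 33 windows of the module, against 3.45% of all windows. A match is a description of the letters and not a bound site.

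The windows of 4 genes are printed because they set the 2 beta-globin genes side by side and add 2 membrane genes of the class between that hold both motifs. They lie at chr7:103827879-103828178 (Hbb-bs, minus strand), chr7:103813874-103814173 (Hbb-bt, minus strand), chr9:21029182-21029481 (Icam4, plus strand) and chr4:134864286-134864585 (Rhd, plus strand). Capitals mark the matches on either strand, and each sequence reads 5′ to 3′ on the gene's strand.
Hbb-bs: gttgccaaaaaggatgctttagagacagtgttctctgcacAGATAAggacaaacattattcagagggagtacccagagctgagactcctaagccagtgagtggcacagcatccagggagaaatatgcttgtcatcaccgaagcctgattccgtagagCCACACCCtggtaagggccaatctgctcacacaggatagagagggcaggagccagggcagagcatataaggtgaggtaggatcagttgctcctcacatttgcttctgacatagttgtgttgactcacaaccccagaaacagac
Hbb-bt: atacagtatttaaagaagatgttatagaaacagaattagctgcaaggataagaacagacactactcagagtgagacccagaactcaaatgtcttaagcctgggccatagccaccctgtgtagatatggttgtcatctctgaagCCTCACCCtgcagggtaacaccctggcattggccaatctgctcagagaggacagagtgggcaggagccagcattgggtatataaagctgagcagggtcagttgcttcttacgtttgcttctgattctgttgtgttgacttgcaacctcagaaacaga
Icam4: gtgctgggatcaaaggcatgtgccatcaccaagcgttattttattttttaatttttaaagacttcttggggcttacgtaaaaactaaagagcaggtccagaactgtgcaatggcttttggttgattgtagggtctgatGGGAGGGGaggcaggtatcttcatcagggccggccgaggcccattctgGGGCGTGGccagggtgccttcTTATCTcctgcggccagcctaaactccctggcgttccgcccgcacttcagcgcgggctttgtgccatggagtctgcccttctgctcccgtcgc
Rhd: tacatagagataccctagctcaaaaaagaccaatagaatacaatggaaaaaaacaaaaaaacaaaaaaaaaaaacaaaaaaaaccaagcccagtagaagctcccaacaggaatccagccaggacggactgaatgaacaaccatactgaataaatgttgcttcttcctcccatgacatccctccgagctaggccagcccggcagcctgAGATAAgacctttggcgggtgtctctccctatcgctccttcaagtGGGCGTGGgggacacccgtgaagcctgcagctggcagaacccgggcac

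In the Hbb-bs window AGATAA began 210 bases before the start and the CACCC-type match 93 bases before it. The Hbb-bt window held the CACCC-type match, 107 bases before the start, and no AGATAA in these 300 bases. In Icam4 both kinds lay on the opposite strand, the CACCC-type at 112 and 64 bases and the GATA-type at 43 bases before the start. In Rhd the GATA-type match also began 43 bases before the start, and the CACCC-type match lay just after the start on the opposite strand. In AML Hbb-bs and Hbb-bt were 338-fold and 289-fold below whole marrow, with an uncertain split of reads between them. Whether AGATAA in this window bears on their levels was not tested.

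The libraries of a group differed in their normalized counts of the module. In AML, replicate 1 was the lowest in 23 of the 32 genes and had 9 of them at or under the floor of 3 reads, while replicate 3 was the highest in 21. Whole marrow replicate 1 was the lowest of its group in all 32 genes and replicate 4 the highest in 28. The total of all normalized counts was also low in whole marrow replicate 1, at 1.02e+07, against 1.79e+07 to 1.93e+07 in replicates 2 to 4. As a share of that total, the module took 8.35% in replicate 1 and 8.02%, 9.74% and 11.8% in replicates 2 to 4. By share, replicate 1 was thus not the lowest. Lineage-negative replicate 1 was the highest of its group in 19 genes, which included each globin, and replicate 2 the lowest in 17. With AML replicate 3 and lineage-negative replicate 1 both left out, every gene called lower in AML against either normal group was still called.

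Erythroid genes outside the module were taken from 3 lists. Their counts stand beside the shares over all genes tested. Against whole marrow 11.3% of all genes were called lower and 27.3% higher (16% and 4.73% with TMM scaling). Against lineage-negative marrow 12.5% were called lower and 17.7% higher. The 18 regulators had median differences of 0.20 from whole marrow and −0.71 from lineage-negative marrow, against 0.67 and 0.02 for all genes. In AML 4 were lower and 5 higher than in whole marrow (6 lower and none higher with TMM scaling). The count higher was near the share over all genes. Against lineage-negative marrow 8 of the regulators were lower and 2 higher. Epor, the erythropoietin receptor, was the lowest of them in both comparisons: it had 2.16, 8.49 and 16.04 in AML, 244 to 678 in whole marrow and 623 to 746 in lineage-negative marrow (−5.91 ± 0.40 SE and −6.38 ± 0.40 SE, limma adjusted p = 3.28e-09 and 2.60e-10). Tal1 and Zfpm1, partners of GATA1, differed by −4.32 and −3.37 from whole marrow and by −4.63 and −4.05 from lineage-negative marrow, all called. Other factors of the same complexes went otherwise against whole marrow: Lmo2 was at −0.26 and Ldb1 at 0.70, neither called, and Lyl1 was called higher at 1.14, though not with TMM scaling. Against lineage-negative marrow Lmo2 and Ldb1 were called lower, at −1.22 and −1.14, also with TMM scaling. Lyl1 was not called there, at 0.31. Stat5a, a transducer of erythropoietin signals, was the highest against whole marrow, at 1.54, which was not called with TMM scaling.

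Of 15 further genes of the red cell membrane, 11 were lower and 1 higher in AML than in whole marrow (12 and none with TMM scaling), and 10 were lower than in lineage-negative marrow with none higher. Their median differences were −2.73 and −2.36, against 0.67 and 0.02 for all genes. Add2, beta-adducin of the skeleton, had the lowest difference from lineage-negative marrow, at −6.59 ± 0.76 SE. The gene called higher was the mechanosensitive channel Piezo1, at 1.41.

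Of 19 genes of heme synthesis, iron handling and organelle clearance, 15 were lower in AML than in whole marrow and none higher, and 13 were lower and 1 higher than in lineage-negative marrow. Their median differences were −2.05 and −1.36, against 0.67 and 0.02 for all genes. Alas2, the erythroid enzyme that starts heme synthesis, was called, as the globins were, against whole marrow alone: it was at −7.83 ± 0.86 SE against whole marrow and at −0.51 ± 0.86 SE against lineage-negative marrow (limma adjusted p = 1.06e-06 and 0.653). The gene called higher was Ftl1, the ferritin light chain, at 1.07. Of 7 embryonic globin genes 5 were in the table and 2 were tested, Hbq1a and Hbq1b. AML was called lower than whole marrow for both, and for neither against lineage-negative marrow, and Hba-x, Hbb-y and Hbb-bh1 were listed at 0 in every AML and lineage-negative library.

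Markers of other cells that share erythroid factors moved with the module, and their part in the result was not tested. Over all genes tested, 11.3% were lower and 27.3% higher in AML than in whole marrow. Against lineage-negative marrow 12.5% were lower and 17.7% higher. Of 12 megakaryocyte genes, 9 were lower in AML than in whole marrow and 7 were lower, 1 higher, than in lineage-negative marrow. Their summed counts were 1673 to 2656 in AML, 1552 to 3951 in whole marrow and 3847 to 4922 in lineage-negative marrow. Of 10 mast cell and basophil genes 8 were tested, and 7 were lower in AML in each comparison. Their sums were 1788 to 7625 in AML, 4806 to 11639 in whole marrow and 27456 to 47030 in lineage-negative marrow. No defining marker of either list was at 0 in all libraries of a group.

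Markers of 6 other cell populations describe what the 3 preparations contained. The shares over all genes were again 11.3% lower and 27.3% higher against whole marrow (16% and 4.73% with TMM scaling), and 12.5% and 17.7% against lineage-negative marrow. A count near these shares is no result about its list. Of 10 genes of erythroblast island macrophages, 2 were lower and 1 higher in AML than in whole marrow and 9 were higher than in lineage-negative marrow, with sums of 3994 to 8549, 2387 to 5475 and 454 to 935 in AML, whole and lineage-negative marrow. None of 12 neutrophil genes was called by limma between AML and whole marrow, at an unadjusted p under 0.05 none differed either, and with TMM scaling 1 was lower, while 9 were higher and 1 lower in AML than in lineage-negative marrow. All 10 B cell genes were lower in AML than in whole marrow, and 7 were higher than in lineage-negative marrow. Of 8 T cell genes, 6 were higher than in whole marrow (none with TMM scaling) and all 8 were higher than in lineage-negative marrow. Of 10 stem and progenitor genes, 3 were higher and 1 lower than in whole marrow (1 and 3 with TMM scaling), and 7 were lower and 1 higher than in lineage-negative marrow. Of 6 endothelial genes tested, 3 were lower than in whole marrow, and 2 were higher and 2 lower than in lineage-negative marrow, in which Sox17 was at 0. In the lineage-negative libraries the macrophage, neutrophil, B cell and T cell sums each lay below those of every whole marrow library. The neutrophil list was split, however. Of its 12 genes, 9 were lower and 3 higher in lineage-negative than in whole marrow (9 and 1 with TMM scaling), with Mpo the highest at 2.32. Over all genes 17.2% were lower and 33.1% higher.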

How the data were processed

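Total RNA was extracted with TRIzol and sequenced from TruSeq stranded libraries, per the labels' protocols. The deposited values are a signal: the authors divided estimated counts per gene by 1 DESeq2 size factor per library, of the poscounts type named in the table's title. STAR, Partek, DESeq2 and the mm10 build appear in the submitters' processing notes without versions. The table's own start positions equal those of GRCm38 for 2 of the 32 erythroid genes, so gene positions are given from GENCODE annotation of GRCm38, matched by gene identifier. Whether counting used strand is not given in the sources used here.

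Groups came from the sample titles. Low values were whole multiples of the value of 1 read, within 0.02 of a step, in 83.6% to 88.6% of cases, so whole reads were not recovered and edgeR and DESeq2 were not run. Depths are totals divided by that step, and floors cover counting error only. Genes with a normalized count of at least 10 in at least 4 samples were kept (18941, with 19374 removed), and log2 values with a pseudocount of 1 entered 1 limma fit of 3 group means (limma 3.58.1, R 4.3.3, empirical Bayes with trend). Tested on simulated data for AML against whole marrow, with 18941 genes, the procedure recovered 199 of 200 genes changed by an absolute log2 difference of 2 and called 14 unchanged ones. That simulation gave every gene the same dispersion, changed no other gene and had no shift of the median gene, unlike these data. Its error counts therefore need not hold here. Ratios were tested by exact two-sided permutation.

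The members and the gene lists were chosen with earlier results of these data known. Any member may be named. From the other lists, the gene with the largest or smallest difference is named, or 1 that a result turns on, and Tal1, Zfpm1, Lmo2, Ldb1 and Lyl1 were chosen after their values were seen. Not every gene that qualified is reported here. The lists cover erythroid regulators, red cell membrane, iron and heme, embryonic globins, and markers of megakaryocytes, mast cells and basophils, island macrophages, neutrophils, B cells, T cells, endothelium and stem cells. Some genes stand in more than 1 list. Alternatives were pseudocounts of 0.1 and 5, 2 other filters, TMM and quantile scaling, fits of 2 groups alone, replicate number as a block and leaving out each library.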

Additional observations from a re-analysis of the deposited data

Results flagged for a closer look

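A library far from the rest of its group was looked for in each of the 32 genes and 3 groups, 96 sets in all, by Dixon's 95% criterion on log2 values, and 4 were found, where chance gives about 1 in 20 sets. Car1 was low in whole marrow replicate 1, at 1132, with the nearest library at 2238. Ermap was listed at 0 in AML replicate 1, with the nearest library at 15.1. Pklr was listed at 0 in the same library, with the nearest at 5.62. Aqp1 was high in lineage-negative replicate 2, at 9196, with the nearest library at 8114. The causes were not tested.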

How the results depend on the processing

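In every alternative run, the 31 genes lower against whole marrow and the 22 lower against lineage-negative marrow in AML kept their calls. Of the 20 calls between the normal groups 16 were kept throughout, and Gata1, Gfi1b, Car1 and Trim58 lost theirs under 1 or more alternatives. The number of early genes was 5 as deposited, 2 with TMM scaling and 3 with quantile scaling. Leaving out each library in turn gave 31 genes lower against whole marrow, 22 to 23 lower against lineage-negative marrow (Hba-a1 was added without AML replicate 3, Tfrc without lineage-negative replicate 1), 4 to 5 early, 14 to 16 terminal and 11 to 14 between. The log2 ratio of Hbb-bt to Hbb-bs then ranged from −0.67 to −0.46 (AML against lineage-negative marrow), 0.12 to 0.31 (AML against whole marrow) and 0.69 to 0.90 (lineage-negative against whole marrow). That of Klf1 to Gata1 ranged from −0.73 to −0.31, −1.51 to −1.08 and −0.83 to −0.68 in the same order. With AML replicate 3 and lineage-negative replicate 1 both left out, a choice made after seeing the data, the first Hbb ratio was −0.72 (exact permutation p = 0.0595).

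Signs turned only for values that were not called. Nfe2 in AML against whole marrow was 0.057 without AML replicate 3 (also when lineage-negative replicate 1 was dropped too), 0.055 without whole marrow replicate 2 and 0.025 without whole marrow replicate 3, over a range of −0.27 to 0.057 when 1 library was left out. Against lineage-negative marrow, Hbb-bs was 0.046 without AML replicate 1, and the removal of lineage-negative replicate 1 gave 0.35 for Hbb-bs and 0.28 for Hba-a2, over ranges of −1.05 to 0.35 and −1.35 to 0.28. Between lineage-negative and whole marrow, TMM and quantile scaling gave Aqp1 −0.69 and −0.51, Ermap −0.20 and −0.072, and Klf1 −0.40 and −0.34. Aqp1 was −0.32 without whole marrow replicate 1 and −0.035 without lineage-negative replicate 2, and Icam4 was 0.012 without whole marrow replicate 3, in a range of −0.43 to 0.012. The causes were not tested.

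Replicate numbers are shared between groups, but nothing in the labels pairs the samples. The correlation of deviations of same-numbered samples ran from −0.29 to 0.17, and not every sample correlated best with its own number. With the replicate block, 31 and 23 genes were lower in AML against whole and lineage-negative marrow, and 5 and 15 were higher and lower in lineage-negative than in whole marrow. Depth limits the AML values at or under the floor of 3 reads. These were 9 genes in replicate 1, 1 gene in each of replicates 2 and 5, and 2 genes in replicate 7.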
